A study of Mus musculus with 9 samples.

Results

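Titin and the genes of the Z-disc and the M-band of the sarcomere were followed in primary cultures of ventricular myocytes, the heart muscle cells of the ventricles, from newborn mice. The members are the 9 genes Ttn, Actn2, Ldb3, Myoz2, Tcap, Csrp3, Nebl, Myom1 and Flnc, found by gene name among the 55401 genes of the count table. All 9 were among the 16762 genes with enough counts to be tested. The cells came from wild-type C57BL/6J mice at 1 day of age and were grown in DMEM with 10% serum. Control cultures stayed in that medium at normal oxygen. The hypoxia group was washed and kept in DMEM that lacked glucose and serum, in a sealed chamber with an oxygen-absorbing pack, for 6 h. The hypoxia + rSRGN group had the same medium and chamber, with recombinant serglycin (rSRGN), a proteoglycan core protein, in the medium. Each group had 3 RNA-seq libraries of poly(A)-enriched RNA.

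The sarcomere is the contractile unit of striated muscle. Thin actin filaments are anchored in the Z-discs at its ends, and thick myosin filaments are cross-linked at the M-band in its middle. Titin runs from the Z-disc to the M-band as an elastic filament, and mutations in titin and in several of its partners cause cardiomyopathy. Z-disc and M-band proteins also carry signalling and protein turnover functions, since kinases, phosphatases, ubiquitin ligases and autophagy receptors dock there.

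Library totals were 21669017 to 22781557 counts in control, 16583985 to 18148474 in hypoxia and 16640239 to 20826701 in hypoxia + rSRGN. The cells are labelled as cardiomyocytes, and all 16 cardiomyocyte markers were detected in each group. Replicates differed by more than sampling noise, with a chi-square of 3.63 to 13.1 per degree of freedom between libraries of one group. Over all genes hypoxia replicate 2 differed most from its group, at 13.1 and 12.7 against 6.68 between hypoxia replicates 1 and 3. Over the members hypoxia replicate 3 was the lowest hypoxia library for 8 of 9, at a mean of -0.34 on the log2 scale from the group mean, and hypoxia replicate 1 was the highest for 8 of 9, at 0.29. The labels do not say that the 3 libraries of a group came from separate cultures or animals, so p-values measure only the spread between these libraries, which may be technical. Low oxygen cannot be told apart from the change of medium in a comparison with control. In these bulk samples, fewer cardiomyocytes and less RNA per cardiomyocyte cannot be told apart.

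Sequences upstream of the start sites are shown for 4 members, because they hold, or lack, the letters of the boxes bound by MEF2 and by serum response factor (the CArG box), which are known regulators of muscle genes. RefSeq windows of 250 bases before each start (GRCm38.p6) matched 8 of the 9 members, with 14 start sites. The last 180 bases before the start are printed 5′ to 3′ on the strand of the gene, with MEF2 and CArG boxes in capitals. Those of Ttn and Myoz2 each hold a MEF2 box, that of Ldb3 holds a CArG box, and that of Flnc holds neither. Flnc is not alone in this, since the 250-base windows of Actn2 and Csrp3, not printed here, hold neither box as well.
Ttn, minus strand, chr2:76982548-76982727: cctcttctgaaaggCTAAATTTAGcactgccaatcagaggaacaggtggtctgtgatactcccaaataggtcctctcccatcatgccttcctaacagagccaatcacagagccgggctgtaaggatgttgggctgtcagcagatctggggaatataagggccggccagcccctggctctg
Myoz2, minus strand, chr3:123034988-123035167: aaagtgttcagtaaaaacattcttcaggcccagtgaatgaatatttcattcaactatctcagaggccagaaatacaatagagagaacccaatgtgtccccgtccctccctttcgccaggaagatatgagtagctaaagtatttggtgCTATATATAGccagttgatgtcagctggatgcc
Ldb3, minus strand, chr14:34588682-34588861: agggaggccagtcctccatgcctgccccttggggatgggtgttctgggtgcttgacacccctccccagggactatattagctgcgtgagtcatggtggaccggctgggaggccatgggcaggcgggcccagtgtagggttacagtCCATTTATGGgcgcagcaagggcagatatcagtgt
Flnc, plus strand, chr6:29432973-29433152: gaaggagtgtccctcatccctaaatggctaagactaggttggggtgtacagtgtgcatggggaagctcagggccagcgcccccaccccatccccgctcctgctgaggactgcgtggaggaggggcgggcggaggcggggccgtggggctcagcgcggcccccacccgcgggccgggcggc
The MEF2 box of Ttn spans bases 166 to 157 before the start, and that of Myoz2 spans bases 33 to 24. The annotation of the count table starts Myoz2 28 bases before the RefSeq start, so the last 28 bases printed lie in its first exon there and the MEF2 box straddles that start. The CArG box of Ldb3 lies 35 to 26 bases before the start, and the window of a second Ldb3 start holds the same box. Myom1 holds CCATAAAAGG at 99 to 90 bases before its listed start, and 1 of the 4 listed starts of Nebl has CCTAAATTGG at 162 to 153 bases. These starts of Myom1 and Nebl lie inside the gene as annotated in the count table. For Myom1 that annotation begins at chr17:71002633, and the listed start is chr17:71019557. Searched on both strands, the MEF2 box was found in 2 of the 14 member windows and in 2.92% of 32851 windows of all genes, and the CArG box was found in 4 member windows and 1.47% of all windows. The more common letters were the E-box CANNTG in 8 member windows (66.2% of all), GATAA in 4 (22.6%), the M-CAT core CATTCC in 2 (12.6%), ACGTG in 3 (16.6%) and GCGTG in 5 (28.2%). An E-box can contain ACGTG, as CACGTG does in Actn2. TATAAA was found in 0 of the 14 member windows and in 12.4% of all. These matches describe letters only, and no measurement of factor binding was made.

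The first comparison asked how the members differed between hypoxia and control. All 9 members were lower in hypoxia. The 9 of 9 called lower stand against 25.1% of the genes tested called lower and 51.6% called either way. The groups did not overlap for 9 of 9, against 35.3% of all genes with hypoxia lower and 37.7% with hypoxia higher. Here a call means that the quasi-likelihood test of edgeR, adjusted by Benjamini-Hochberg over all tested genes, gave p below 0.05 and that the level differed 1.5-fold or more. The median log2 fold change of the members was -3.66, beside 0.05 over all genes tested. The members together took 0.817% to 1.00% of the counts of a control library and 0.0715% to 0.107% of the counts of a hypoxia library. Over the cardiomyocyte markers, 16 of 16 were called lower at a median of -3.63, and their summed level was 56032 to 67452 CPM in control and 4719 to 7317 CPM in hypoxia. CPM are counts scaled to a common library size with TMM factors.

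Titin, encoded by Ttn (ENSMUSG00000051747.15), is the elastic filament of the sarcomere. The gene spans chr2:76703980-76982547 on the minus strand, and its 345 merged exons hold 117334 bases in the annotation of the table. Its level was 2706, 3500 and 3903 CPM in control replicates 1 to 3, 337, 311 and 193 CPM in hypoxia, and 517, 483 and 455 CPM in hypoxia + rSRGN. Each group was separate from the others, with every hypoxia + rSRGN library between the hypoxia and control libraries. Ttn was 12.02-fold lower in hypoxia than in control (log2 fold change -3.59 ± 0.16 SE, adjusted p = 6.29e-15, edgeR). An antisense gene, Gm13938, shares 453 of its exon bases, 0.386% of them, and counting without strand cannot separate those.

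**Figure D1:**
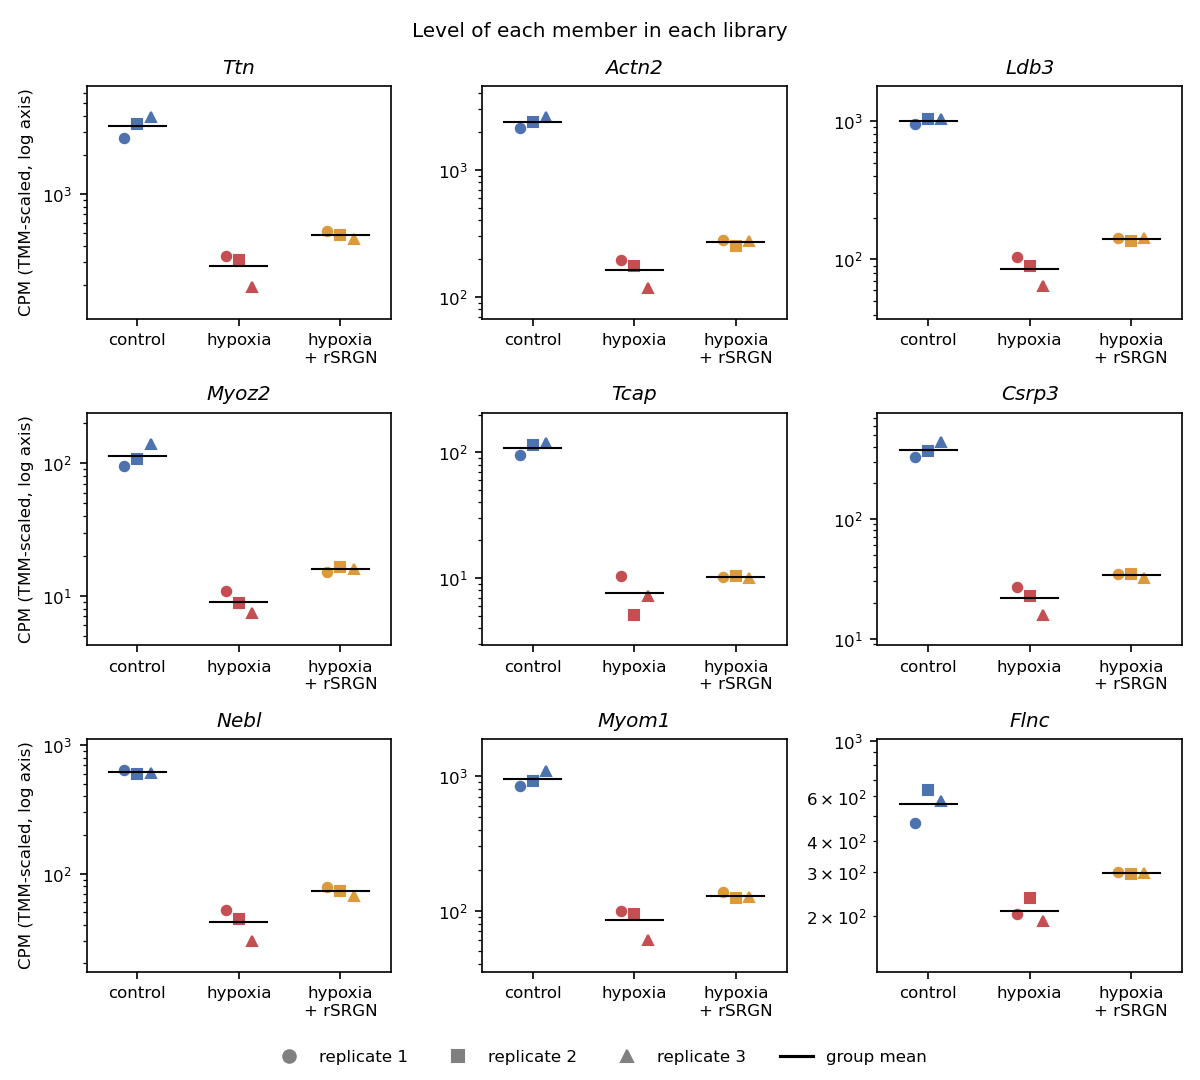
Level of each of the 9 members in each library, in TMM-scaled CPM on a log axis, with control, hypoxia and hypoxia + rSRGN side by side, 1 symbol per replicate and a line at the group mean. The control libraries lie above all others in every panel, and for 8 members every hypoxia + rSRGN library lies above the hypoxia libraries, while Tcap overlaps.

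Actn2 (ENSMUSG00000052374.16, chr13:12269426-12340760, minus strand) encodes alpha-actinin 2, which cross-links actin filaments from neighbouring sarcomeres at the Z-disc. It measured 2122, 2400 and 2608 CPM in the control libraries, 196, 175 and 118 CPM in hypoxia and 282, 253 and 275 CPM in hypoxia + rSRGN. The 3 groups were separate. The level in hypoxia was 14.6-fold lower than in control (log2 fold change -3.86 ± 0.13 SE, adjusted p = 1.26e-16, edgeR).

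Ldb3 (ENSMUSG00000021798.14, chr14:34526603-34588682, minus strand) encodes the PDZ-LIM protein Cypher, also known as ZASP, which binds alpha-actinin 2. Its control libraries held 951, 1032 and 1036 CPM, its hypoxia libraries 104, 89.3 and 64.5 CPM, and its hypoxia + rSRGN libraries 142, 136 and 143 CPM. Again no groups overlapped, and the fall in hypoxia was 11.7-fold (log2 fold change -3.55 ± 0.12 SE, adjusted p = 6.92e-17, edgeR).

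Myoz2 (ENSMUSG00000028116.13, chr3:123006206-123035015, minus strand) encodes calsarcin-1, which tethers the phosphatase calcineurin to the Z-disc. Replicates 1 to 3 gave 95.9, 107 and 139 CPM in control, 10.8, 8.84 and 7.36 CPM in hypoxia and 15.2, 16.5 and 15.95 CPM in hypoxia + rSRGN. Hypoxia was lowest and control highest without overlap, and the fall was 12.6-fold (log2 fold change -3.66 ± 0.14 SE, adjusted p = 4.46e-16, edgeR).

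Tcap (ENSMUSG00000007877.2, chr11:98383811-98384953, plus strand) encodes telethonin, the cap that joins the ends of titin molecules in the Z-disc. It was found at 95.1, 115 and 118 CPM in control, at 10.5, 5.14 and 7.18 CPM in hypoxia and at 10.2, 10.4 and 10.0 CPM in hypoxia + rSRGN. Hypoxia replicate 2 was the lowest library here, and hypoxia replicate 1 lay above all 3 hypoxia + rSRGN libraries, so those groups overlapped. Tcap fell 14.3-fold in hypoxia (log2 fold change -3.84 ± 0.15 SE, adjusted p = 1.18e-15, edgeR).

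Csrp3 (ENSMUSG00000030470.15, chr7:48830398-48848033, minus strand) encodes muscle LIM protein, a partner of telethonin and alpha-actinin. It had 326, 373 and 437 CPM in control, 26.9, 22.7 and 15.6 CPM in hypoxia and 34.7, 34.6 and 32.0 CPM in hypoxia + rSRGN. The groups were separate, and its fall of 17.4-fold in hypoxia was the largest of the 9 (log2 fold change -4.12 ± 0.14 SE, adjusted p = 7.20e-17, edgeR).

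Nebl (ENSMUSG00000053702.16, chr2:17343909-17731464, minus strand) encodes nebulette, the cardiac relative of nebulin at the Z-disc end of the thin filament. Its level was 639, 597 and 611 CPM in control, 52.1, 44.4 and 30.1 CPM in hypoxia and 78.5, 73.0 and 66.6 CPM in hypoxia + rSRGN. The order of the groups was that of Ttn, with no overlap and a 14.6-fold fall in hypoxia (log2 fold change -3.86 ± 0.13 SE, adjusted p = 8.04e-17, edgeR).

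Myom1 (ENSMUSG00000024049.15, chr17:71002633-71126856, plus strand) encodes myomesin 1, which links titin and the thick filaments at the M-band. The libraries held 843, 925 and 1089 CPM in control, 99.5, 94.9 and 60.6 CPM in hypoxia and 138, 124 and 125 CPM in hypoxia + rSRGN. No groups overlapped, and the level in hypoxia was 11.2-fold lower than in control (log2 fold change -3.49 ± 0.14 SE, adjusted p = 8.33e-16, edgeR). Myl12a on the opposite strand shares 207 of its exon bases, 1.98% of them.

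Flnc (ENSMUSG00000068699.12, chr6:29433256-29461883, plus strand) encodes filamin C, an actin cross-linker of Z-discs, the cell membrane and intercalated discs. It was at 470, 638 and 574 CPM in control, at 204, 235 and 190 CPM in hypoxia and at 299, 295 and 296 CPM in hypoxia + rSRGN. The groups were separate here too, but the distance between control and hypoxia was the smallest of the members, at 2.67-fold (log2 fold change -1.42 ± 0.10 SE, adjusted p = 9.96e-12, edgeR).

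**Figure D2:**
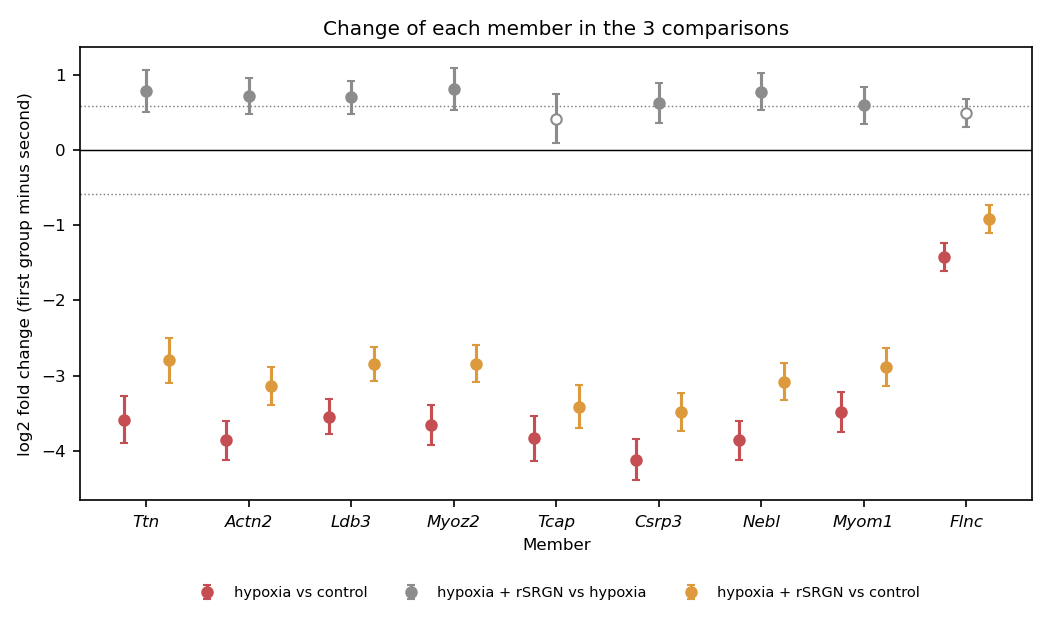
Log2 fold change of each member in the 3 comparisons, with bars for the 95% interval, filled points where the gene was called and dotted lines at a fold change of 1.5. In hypoxia against control 8 members lie between -4.12 and -3.49 and Flnc lies at -1.42, and in hypoxia + rSRGN against hypoxia all 9 lie between 0.42 and 0.82.

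Flnc was set against each of the other 8 members within every library because its fall had been seen to be the smallest, so the ratios are a description of that difference. The log2 ratio of Flnc to the other member was higher in hypoxia than in control by 2.10 (against Myom1) to 2.73 (against Csrp3), and for 8 of 8 members the groups did not overlap. Over all 36 pairs of members, those with Flnc included, 19 did not overlap, so separate ratios were not particular to Flnc. Between Ttn and Myom1, for instance, the log2 ratio differed by -0.10 between hypoxia and control, with overlapping groups, and between Ttn and Csrp3 it differed by 0.53 without overlap.

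Levels between genes can be compared per kilobase of exon. In control the order was Actn2 at 626 ± 64.3 CPM per kilobase (SD, n = 3), then Ldb3 at 165, Csrp3 at 142, Tcap at 115, Myom1 at 91.1, Flnc at 59.6, Nebl at 40.4, Myoz2 at 33.3 and Ttn at 28.7. Neighbours in this order from Ldb3 to Myom1, and from Nebl to Ttn, had overlapping ranges over the libraries, whereas Actn2 was above all others and Flnc was separate from both of its neighbours. In hypoxia Actn2 stayed first at 43.0 ± 10.5, and Flnc came next at 22.3 ± 2.44, ahead of Ldb3 at 14.1 without overlap. Csrp3, Myom1 and Tcap followed at 8.14, 8.13 and 8.02 with overlapping ranges, and Nebl, Myoz2 and Ttn came last at 2.77, 2.63 and 2.39, again overlapping. In hypoxia + rSRGN the order was that of hypoxia, from 71.2 ± 3.90 for Actn2 and 31.6 ± 0.24 for Flnc down to 4.13 ± 0.27 for Ttn.

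As a share of the summed CPM per kilobase of the 9 members, Flnc held 4.31%, 5.15% and 4.29% in control, 16.7%, 21.4% and 23.3% in hypoxia and 17.6%, 18.5% and 18.0% in hypoxia + rSRGN. The share of Flnc was thus above control in all 6 libraries of the hypoxic groups, and the hypoxic groups overlapped each other (difference -2.39 percentage points, exact permutation p = 0.4, two-sided). Actn2 held 48.1% ± 0.16 in control, 38.3% ± 2.09 in hypoxia and 40.7% ± 1.18 in hypoxia + rSRGN (SD, n = 3). Csrp3 held 10.9%, 7.23% and 7.23% on average, and Nebl 3.13%, 2.46% and 2.73%. In hypoxia against control the groups were separate for the shares of Flnc, Actn2, Csrp3 and Nebl and overlapped for the other 5 members. Shares sum to 100%, so each share depends on that of Flnc, and the shares were computed again without Flnc after the values had been seen. Without it Actn2 held 50.4% on average in control and 48.1% in hypoxia, and Csrp3 held 11.4% and 9.09%, both lower in hypoxia without overlap. For hypoxia + rSRGN, the Actn2 share without Flnc was 48.2% to 50.6%, which overlapped the 50.3% to 50.6% of control. Nebl held 2.94% to 3.77% in control and 2.96% to 3.17% in hypoxia, which overlap. Ldb3 at 13.3% and 15.8%, Myom1 at 7.32% and 9.10% and Ttn at 2.30% and 2.66% were higher in hypoxia without overlap (exact permutation p = 0.1 for each of these 5 separate shares, two-sided, the smallest that 3 libraries against 3 allow). These shares still sum to 100%, with Actn2 as the largest part, so their direction depends on which member is left out. With Actn2 left out in place of Flnc, the share of Myom1 differed by -1.71 percentage points between hypoxia and control.

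**Figure D3:**
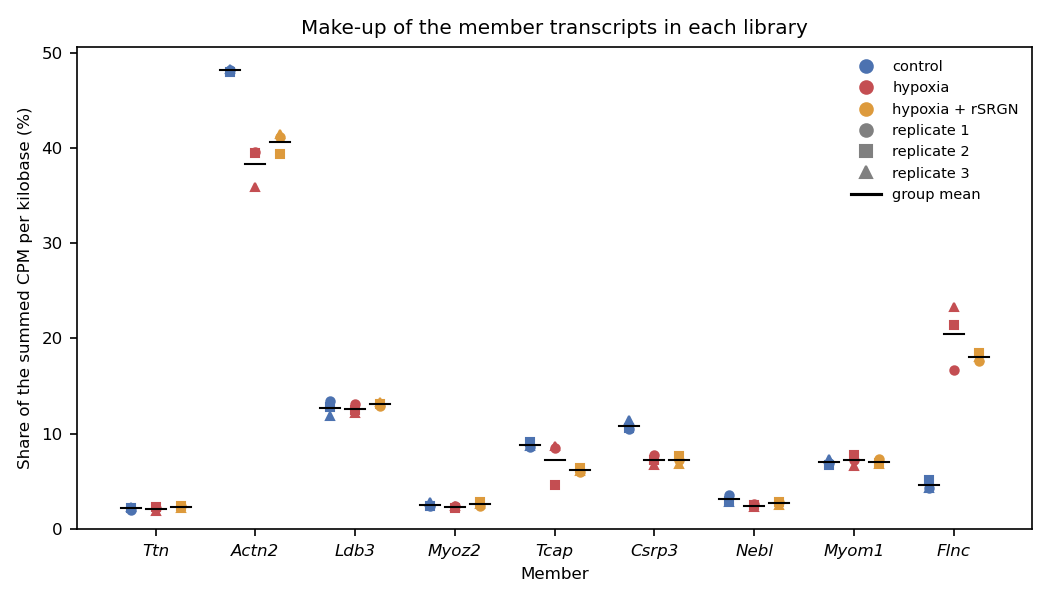
Share of each member in the summed CPM per kilobase of the 9 members, in percent, by library (1 symbol per replicate, colours for the groups, lines at the group means). Flnc lies at 4.29% to 5.15% in control and at 16.7% to 23.3% in hypoxia, while Actn2 lies near 48.1% in control and lower in both hypoxic groups. These shares include Flnc, on which each of them depends.

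The summed level of the members was also set against the summed level of the 16 cardiomyocyte markers, none of which is a member, a denominator chosen after the values had been seen. It was 14.7% to 15.6% of the marker sum in control, 14.2% to 14.5% in hypoxia and 14.7% to 14.9% in hypoxia + rSRGN, while the marker sum itself differed between control and hypoxia by the amounts given above. Without Flnc the range was 13.9% to 14.7% in control, 10.5% to 11.4% in hypoxia and 11.6% to 11.98% in hypoxia + rSRGN. Flnc alone was 0.839% to 0.996% of the marker sum in control, 2.79% to 4.03% in hypoxia and 2.94% to 3.08% in hypoxia + rSRGN. Ttn was 4.83% to 5.79%, 4.08% to 4.61% and 4.71% to 5.09% in the same order.

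The second comparison asked how rSRGN in the hypoxic medium changed the members, and the labels give the added protein as the only difference between these groups. 7 of the 9 members were called higher with rSRGN, against 2.27% of the genes tested, and 0 were called lower, against 0.859%. The groups did not overlap for 8 of 9, against 16.5% of all genes in this direction. The median log2 fold change of the members was 0.71, beside -0.03 over all genes. Myoz2 rose 1.76-fold (log2 fold change 0.82 ± 0.15 SE, adjusted p = 0.000687, edgeR), Ttn 1.73-fold (0.79 ± 0.14 SE, adjusted p = 0.000868) and Nebl 1.72-fold (0.78 ± 0.12 SE, adjusted p = 0.000270). Actn2, Ldb3, Csrp3 and Myom1 rose by 0.73, 0.71, 0.63 and 0.60 on the log2 scale. Flnc was 0.50 ± 0.09 SE higher, with an adjusted p of 0.00111 (edgeR) but under the fold limit, and Tcap was 0.42 ± 0.17 SE higher with an adjusted p of 0.0924 (edgeR).

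These rises rested in part on hypoxia replicate 3. Without it 2 of 9 members, Myoz2 and Nebl, were called higher, against 1.15% of 17445 genes in that fit, and Ttn, Actn2, Ldb3, Csrp3 and Myom1 came to log2 fold changes of 0.58, 0.54, 0.54, 0.44 and 0.41, under the fold limit but with adjusted p from 0.000324 to 0.0139 (edgeR). The call of Myom1 was also lost without hypoxia + rSRGN replicate 1 (0.55), while Tcap was called without hypoxia replicate 1 (0.73) and Flnc without hypoxia replicate 2 (0.59). In the same library the cardiomyocyte marker sum was 4719 CPM, beside 7317 and 6963 CPM in hypoxia replicates 1 and 2, and 9583 to 10168 CPM in hypoxia + rSRGN. Of these markers 14 of 16 were called higher with rSRGN, and their median was 0.77 on the log2 scale. The part of this in the members' rise was not tested.

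The log2 ratio of Flnc to each of the other 8 members differed between hypoxia + rSRGN and hypoxia by -0.33 to 0.02. The groups overlapped for 8 of 8. Shares of the members also overlapped between these groups for all 9.

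In the third comparison, hypoxia + rSRGN against control, 9 of 9 members were called lower, against 24.7% of the genes tested, and 9 of 9 did not overlap, against 36.6% of all genes in this direction and 73.3% in either. The median was -2.89, beside 0.01 over all genes. The log2 fold changes ran from -3.49 for Csrp3 and -3.42 for Tcap to -2.80 for Ttn and -0.92 for Flnc. Ttn was thus 6.95-fold lower than in control with rSRGN and 12.02-fold lower without it. Both comparisons with control share the control libraries, and the second shares the hypoxia libraries with the first.

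Other genes of the Z-disc were more mixed than the members. Of 29 listed, 27 were tested, and in hypoxia against control 15 were called lower and 6 higher (25.1% and 26.4% of all genes). Their median log2 fold change was -1.07. The largest falls were in Xirp1 (log2 fold change -5.90 ± 0.14 SE), an actin-binding protein of the intercalated disc, Synpo2l (-4.61 ± 0.12 SE), a Z-disc protein, and Nrap (-4.30 ± 0.15 SE), which takes part in myofibril assembly. Xirp1 measured 416, 526 and 510 CPM in control, 9.88, 8.38 and 6.02 CPM in hypoxia and 16.6, 21.9 and 16.6 CPM in hypoxia + rSRGN.

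The 6 Z-disc genes called higher in hypoxia were Bag3, Lmcd1, Pdlim1, Pdlim7, Ankrd2 and Actn3. Bag3, a co-chaperone in the turnover of filamin, was at 154, 169 and 151 CPM in control and at 543, 503 and 486 CPM in hypoxia, without overlap (log2 fold change 1.69 ± 0.08 SE, adjusted p = 1.14e-14, edgeR). Lmcd1, a LIM domain protein, rose by 1.43 on the log2 scale, and the PDZ-LIM genes Pdlim1 and Pdlim7 rose by 0.70 and 0.61. Ankrd2, a stretch-responsive ankyrin repeat protein, had 0, 1 and 2 counts in control and 31, 49 and 41 counts in hypoxia, a ratio of 49.4 after scaling by library size (exact 95% interval 16.5 to 243, counting error only). Actn3, the fast-fibre alpha-actinin, had 22, 8 and 8 counts in control and 56, 39 and 16 in hypoxia, which overlap. With rSRGN, 6 of 27 of these genes were called higher than in hypoxia and 0 lower, against 2.27% and 0.859% of all genes, and the median was 0.17. Xirp1 rose by 1.18 on the log2 scale, Smpx, a small muscle protein, by 0.85, and Mypn, which encodes myopalladin, by 0.72. Against control, hypoxia + rSRGN had 15 of 27 called lower and 3 called higher, against 24.7% and 24.1% of all genes, with Xirp1 at -4.71, Synpo2l at -4.01 and Xirp2 at -3.86, and with Ankrd2, Bag3 (1.99) and Lmcd1 (1.40) higher.

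Most genes that bind, splice or turn over titin and the M-band were lower in hypoxia as well. Of 17 listed, 16 were tested, and in hypoxia against control 15 of 16 were called lower and 0 higher, against 25.1% and 26.4% of all genes. The median log2 fold change was -3.61. The ubiquitin ligase genes Trim55 and Trim63, known as MuRF2 and MuRF1, fell by 4.53 and 4.38 on the log2 scale, and Alpk3, an alpha kinase of the M-band, fell by 4.12. Sqstm1, the autophagy receptor p62 that meets titin at its kinase domain, was the exception, at 598, 612 and 538 CPM in control and 816, 960 and 843 CPM in hypoxia (log2 fold change 0.58 ± 0.08 SE, adjusted p = 1.01e-06, edgeR), which is under the fold limit. Rbm20, the splicing factor that sets titin isoforms, was chosen for its role after its values were seen, and it went from 317, 356 and 347 CPM in control to 27.0, 26.2 and 18.1 CPM in hypoxia (log2 fold change -3.83 ± 0.11 SE). Counts per gene do not show isoforms.

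With rSRGN, 8 of these 16 genes were called higher than in hypoxia and 0 lower, against 2.27% and 0.859% of all genes, and the median was 0.66. Rbm24, a splicing factor of muscle, rose by 0.88 on the log2 scale, Myom2, the M-protein, by 0.83 and Alpk3 by 0.78. Without hypoxia replicate 3 the counts were 3 called of the titin and M-band list (17 tested) and 3 called of the other Z-disc list (28 tested, 2 higher and 1 lower). In that fit 1.15% of all genes were called higher and 0.688% lower. Against control, 14 of 16 were called lower in hypoxia + rSRGN, with Trim63 at -4.10, Trim55 at -3.77 and Trim54 at -3.42, and 1 was called higher, Sqstm1 at 0.68 (24.7% and 24.1% of all genes).

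**Figure D4:**
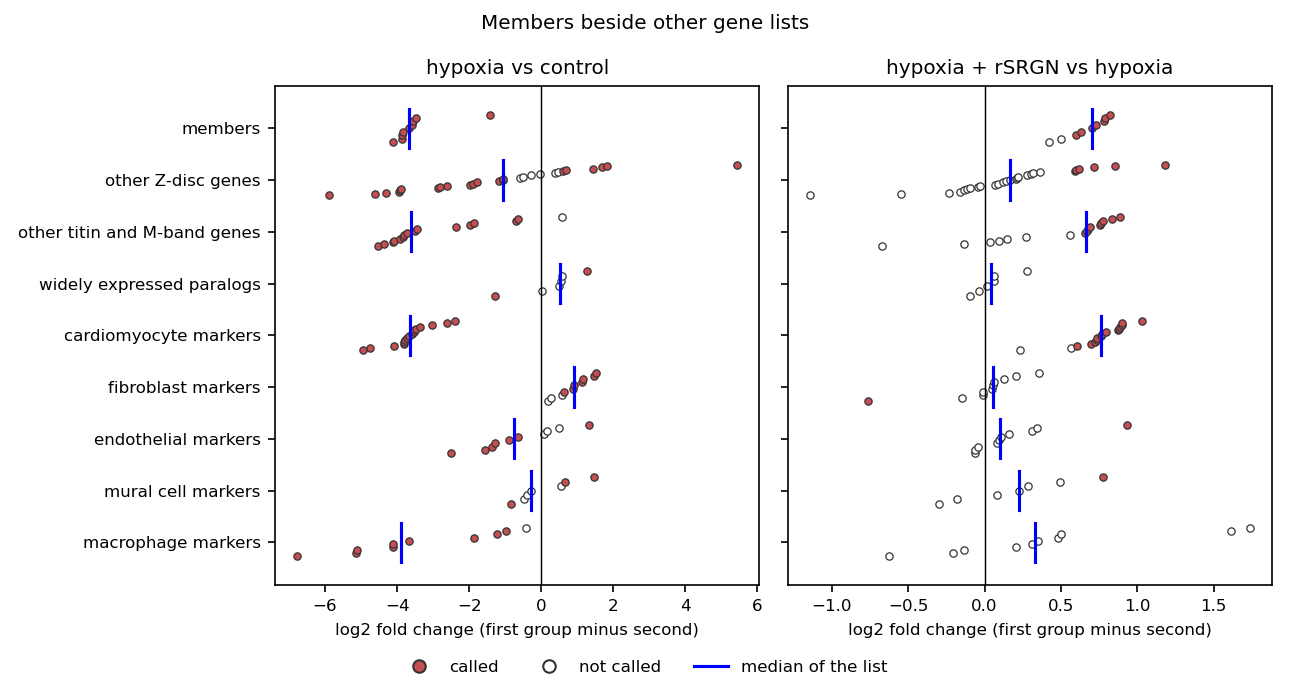
Log2 fold change of each tested gene in 9 gene lists, for hypoxia against control on the left and hypoxia + rSRGN against hypoxia on the right, with filled points for called genes and a blue line at the median of the list. The medians of the members, of the other titin and M-band genes and of the cardiomyocyte markers lie at -3.66, -3.61 and -3.63 on the left and at 0.71, 0.66 and 0.77 on the right.

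Several members belong to families whose other genes are widely expressed. Of 6 such paralogs, 1 was called higher and 1 lower in hypoxia against control, against 26.4% and 25.1% of all genes, and the median log2 fold change was 0.52. Actn1, the alpha-actinin of non-muscle adhesions and stress fibres, was at 346, 366 and 357 CPM in control and 880, 835 and 886 CPM in hypoxia (log2 fold change 1.28 ± 0.07 SE, adjusted p = 1.90e-13, edgeR). Per kilobase, Actn2 at 626 was above Actn1 at 64.4 in control, and Actn2 at 43.0 was below Actn1 at 157 in hypoxia. Csrp2, a LIM protein of smooth muscle, fell by 1.27 on the log2 scale. Flna, filamin A, was at 0.02 ± 0.07 SE (95% interval -0.12 to 0.17), and Actn4, Csrp1 and Lasp1 were at 0.50, 0.54 and 0.57, under the fold limit. In hypoxia + rSRGN against hypoxia, 0 of 6 were called in edgeR, at log2 fold changes from -0.09 to 0.28. Against control, hypoxia + rSRGN had Actn1 higher, at 1.34, and Csrp2 lower, at -1.21.

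The log2 ratio of a member to a relative was compared in 12 pairs, with 1 further pair, Myoz2 with Myoz3, left out for too few counts. Actn2, Csrp3, Nebl, Ldb3 and Myom1 are each in more than 1 pair, so the pairs are not independent. Each ratio also carries the change of its member given above. Of single genes, 73.0% did not overlap either way in hypoxia against control. The rate was 32.0% in hypoxia + rSRGN against hypoxia and 73.3% in hypoxia + rSRGN against control. In hypoxia against control the ratio was lower without overlap in 11 of 12 pairs, from -5.17 for Actn2 to Actn1 to -1.44 for Flnc to Flna (exact permutation p = 0.1, two-sided, the smallest possible, adjusted p = 0.109 over the pairs). Myom1 to Myom2 was the exception, with a difference of -0.01 and overlapping groups (exact permutation p = 1). In hypoxia + rSRGN against hypoxia 8 of 12 ratios did not overlap, those of Actn2, Csrp3, Nebl and Ldb3 to their relatives, with differences from 0.45 to 0.93 (exact permutation p = 0.1, adjusted p = 0.15). Flnc to Flna overlapped there, at 0.23. In hypoxia + rSRGN against control 11 of 12 ratios were lower without overlap (exact permutation p = 0.1, adjusted p = 0.109), among them Myom1 to Myom2 at -0.26, and Myom1 to Myom3 at -0.28 overlapped. Myom3, Neb and Myoz1 had few counts, so their ratios are less certain.

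**Figure D5:**
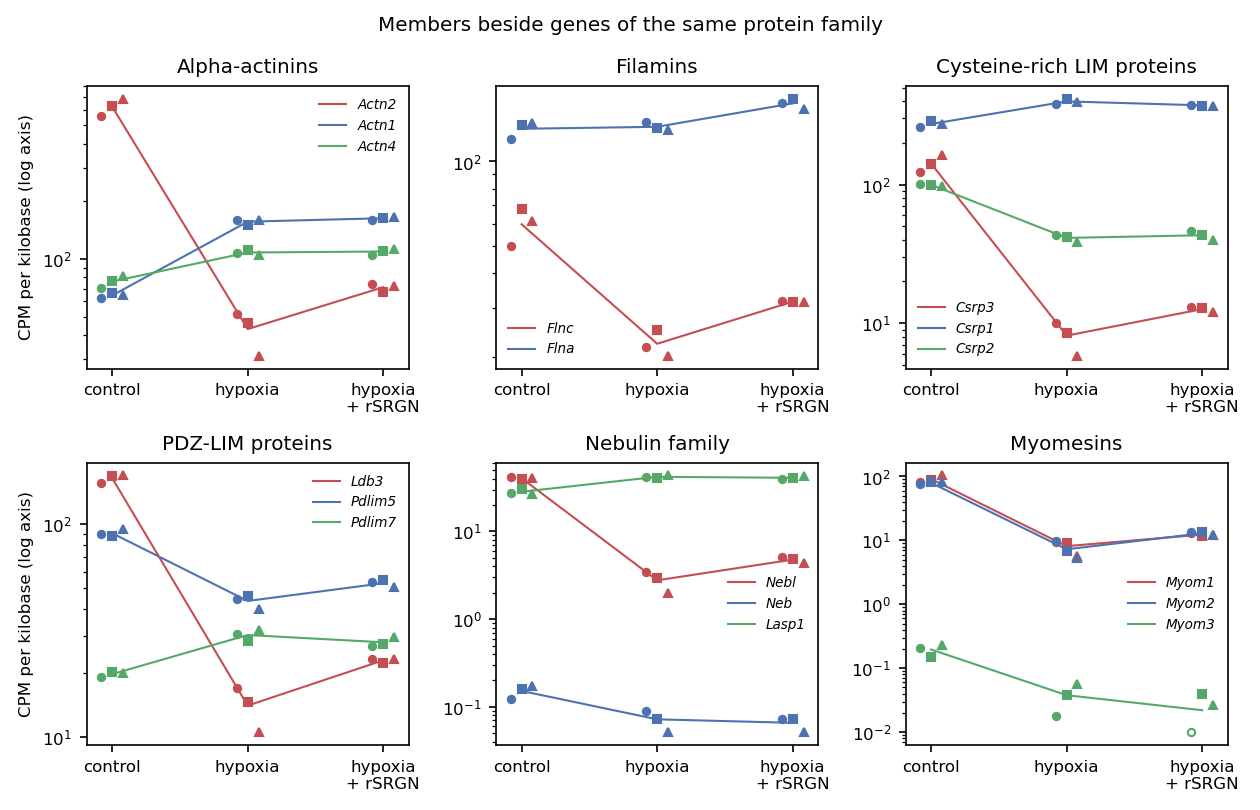
Level per kilobase of exon, on log axes, of 6 members and their relatives in the 3 groups, with lines through the group means and 1 symbol per library (an open symbol marks a library with 0 counts). Actn2 lies above Actn1 in control and below it in both hypoxic groups, and Myom1 and Myom2 lie close to each other, at 91.1 and 79.6 in control, 8.13 and 7.25 in hypoxia and 12.3 and 12.9 in hypoxia + rSRGN.

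Markers of other cell types were measured beside the members. Of 10 fibroblast markers, 7 were called higher in hypoxia than in control and 0 lower, against 26.4% and 25.1% of all genes for these and the following lists, with a summed level of 8989 to 10580 CPM in control, 17856 to 20632 CPM in hypoxia and 19703 to 20318 CPM in hypoxia + rSRGN. Macrophage markers were lower in 9 of 10, from 231 to 248 CPM summed in control to 25.4 to 28.8 CPM in hypoxia and 29.8 to 35.6 CPM in hypoxia + rSRGN, with C1qa at 0, 0 and 1 counts in the hypoxia libraries. Endothelial markers had 1 of 10 higher and 6 lower, with sums of 287 to 313, 508 to 584 and 589 to 592 CPM in the same order. Most of that sum was Eng, the 1 called higher, and the other 9 summed to 112 to 144, 105 to 121 and 116 to 144 CPM, with overlapping ranges. Mural cell markers had 2 of 7 called higher and 1 lower, with 4 of 7 below 0 on the log2 scale and sums of 1715 to 2024, 2400 to 2713 and 2274 to 2398 CPM. Most of that sum was Acta2, which was not called, and the other 6 summed to 442 to 534, 538 to 553 and 693 to 731 CPM. These sums without the most abundant gene were added after the values had been seen. With rSRGN against hypoxia, 1 fibroblast marker was lower, 1 endothelial and 1 mural marker were higher and 0 of 10 macrophage markers were called (2.27% of all genes were called higher and 0.859% lower). Only 1 of 7 neutrophil, 0 of 6 erythroid and 3 of 7 skeletal muscle markers had enough counts to be tested, and the skeletal regulator Myod1 was at 0 in all libraries. Mitochondrial rRNA took 0.195% to 0.239% of the counts in control, 2.31% to 2.61% in hypoxia and 2.27% to 2.67% in hypoxia + rSRGN. Their part in the members' changes was not tested.

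Within groups most members deviated in the same libraries. The deviations of 2 members from their group means had a median Pearson's r of 0.80 over the 36 pairs, in a range of -0.10 to 0.98, over 9 libraries that share depth and scaling. Tcap was at -0.10 to 0.55 with the other 8 and Flnc at -0.10 to 0.66, while the 21 pairs without these members, set apart after the values had been seen, were at 0.58 to 0.98. Control replicate 1 was the lowest control library for 8 of 9 members. Of 9741 other genes at 10 CPM or more on average, those with the pattern most like the mean of the members over the 9 libraries were Slc8a1, the sodium-calcium exchanger, Mybpc3, cardiac myosin-binding protein C, Myl2, a ventricular myosin light chain, Trak2, a mitochondrial transport adaptor, and Cox6a2, a muscle subunit of cytochrome oxidase. Pearson's r was 0.999 to 1.00, and as the libraries form 3 groups it mainly reflects the group levels. The size of the change is not part of r, since Slc8a1 was at -3.92 on the log2 scale and Trak2 at -1.64 in hypoxia against control.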

How the data were processed

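Poly(A)-enriched RNA of 9 libraries, 3 per group, was sequenced on an Illumina NovaSeq, and groups and replicate numbers were taken from the labels. The deposited values are raw counts, 1 per sequenced fragment and gene, which the authors made with featureCounts 2.0.1 from read pairs over the exons of the GENCODE mouse annotation, release 25 (build GRCm38). The header shows that strand was not used. The submitters' processing notes name HISAT2 and mm10, and the version of the aligner is not given in the sources used here. The paper given with the series does not describe these cultures. All 9 columns were used and 0 were left unused. Counting without strand leaves overlapping genes uncertain, and gene counts do not separate isoforms.

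After filterByExpr and TMM scaling, a mean per group was fitted to all 9 libraries together in edgeR 4.0.16 (R 4.3.3), with the quasi-likelihood test and Benjamini-Hochberg adjustment over 16762 genes. Calls were made below an adjusted p of 0.05 where the level differed 1.5-fold or more. SE were derived from the test statistic, and 95% intervals from the SE. On simulated counts with 200 genes changed 2-fold, 154 were recovered among 16323 genes with 2 unchanged genes called (hypoxia against control), 148 among 16280 with 5 (hypoxia + rSRGN against hypoxia) and 146 among 16272 with 9 (hypoxia + rSRGN against control). Ratios used log2 CPM with a prior count of 2, and shares and ratios were compared by exact permutation of libraries in scipy 1.17.1. Intervals on ratios of counts cover counting error only.

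The members and gene lists were chosen with earlier results of these data known. Beside the members, the genes named were, in each list of sarcomere genes and comparison, up to 3 called genes that rose most and up to 3 that fell most, called genes that moved against the larger number of their list, family relatives, and the 5 genes most like the members. Of the family relatives listed, 1 is not reported here. Alternatives were DESeq2 1.42.0, RLE scaling, library size alone, a minimum of 1 count in all or of 10 in each library, no adjustment of p, no fold limit, only the groups compared, a replicate block, each library left out, shares of raw counts or without Actn2, and a prior count of 0.5.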

Additional observations from a re-analysis of the deposited data

How the results depend on the processing

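Under 15 alternatives per result, the 9 members kept their direction in all 3 comparisons, and all 9 stayed called in both comparisons with control. In hypoxia + rSRGN against hypoxia the number of members called was 7 and ranged from 2 to 8 with 1 library left out, the lowest without hypoxia replicate 3. The other Z-disc genes called there ranged from 3 to 6 and numbered 11 with no fold limit, the other titin and M-band genes from 3 to 8, and all genes from 321 to 699, with 899 at the unadjusted p and 2790 with no fold limit. Myom1 was also lost with library size alone (0.58) and without hypoxia + rSRGN replicate 1 (0.55), Tcap was called without hypoxia replicate 1 (0.73), and Flnc was called without hypoxia replicate 2 (0.59) and with no fold limit. The cause was not tested. Of the calls in that comparison 72.6% were higher with TMM, 84.3% with DESeq2, 80.7% with RLE scaling and 66.9% with library size alone. A replicate block gave 8550, 495 and 8096 called genes in the 3 comparisons in the order of the report, with 9, 7 and 9 members called, and changed no call of a member. Deviations of libraries with the same number correlated at -0.037 to 0.021, and 1 of 9 libraries correlated best with one of their own number. These values cannot show whether libraries of the same number share a preparation or batch, and the labels do not say.

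The share differences that changed sign were between groups that overlap in the shares of all members. Some of the reversed differences were themselves as separate as the libraries allow (exact permutation p = 0.1, two-sided). Without Flnc these were Ttn and Ldb3 in hypoxia against control. Without Actn2 they were Myom1 in both comparisons with control and Ldb3 in hypoxia + rSRGN against control. With raw counts this held for Myom1 in hypoxia + rSRGN against control. With 1 library left out, the share differences in percentage points ranged, for hypoxia against control, from -0.179 to 0.0408 for Ttn, -0.54 to 0.21 for Ldb3 and -0.0105 to 0.538 for Myom1. For hypoxia + rSRGN against hypoxia they ranged from -0.27 to 0.24 for Csrp3 and -0.484 to 0.0640 for Myom1, and for hypoxia + rSRGN against control from -0.0850 to 0.215 for Myom1. Shares of raw counts reversed Ttn (-2.00), Ldb3 (-1.02), Myoz2 (-0.10) and Myom1 (-1.18) in hypoxia + rSRGN against control and Myom1 (-0.71) in hypoxia against control. Without Actn2 the reversed differences were -0.25 for Ttn, -2.38 for Ldb3, -0.43 for Myoz2 and -1.60 for Myom1 in hypoxia + rSRGN against control, -1.71 for Myom1 in hypoxia against control, and 0.42 for Csrp3 and 0.11 for Myom1 in hypoxia + rSRGN against hypoxia. Without Flnc, an alternative chosen after the data had been seen, they were 0.36 for Ttn, 2.48 for Ldb3 and 0.31 for Myoz2 in hypoxia against control and 0.0434 for Nebl in hypoxia + rSRGN against control. The log2 ratio of Myom1 to Myom2 in hypoxia against control ranged from -0.127 to 0.0882, and that of Myom1 to Myom3 in hypoxia + rSRGN against control ranged from -0.84 to 0.11 and was 0.59 with a prior count of 0.5. Myom3 had 8 to 77 counts per group.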
